A study of Homo sapiens with 12 samples.

Results

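The proteasome subunit genes comprised the 46 genes, of 28008 in the count tables, whose symbol is PSMA, PSMB, PSMC, PSMD, PSME, PSMF or PSMG followed by a number, with the immunoproteasome genes PSMB8 and PSMB9 set aside. They were 17 genes of the barrel-shaped core (8 alpha and 9 beta), 17 genes of the regulatory cap (9 of its base and 8 of its lid), 3 cap assembly factors, 4 activators, the regulator PSMF1 and 4 core assembly chaperones. Their RNA was read in a pair of cell lines from human pancreatic neuroendocrine tumors (pNETs), QGP-1 and BON-1, sequenced in order to identify what changes when MUC1 is silenced. Both lines carried tet-MUC1shRNA, a hairpin targeting MUC1 delivered on a puromycin-selectable lentiviral vector, which is transcribed when doxycycline (DOX) is added. The vehicle groups received 0.1% DMSO and the DOX groups 500 ng/mL DOX, both for 7 days, and each of the 4 groups was cultured in triplicate, giving 12 libraries. QGP-1 cells were grown in an RPMI medium and BON-1 cells in DMEM/F-12, so that line and medium cannot be told apart. DOX-treated cells with a control hairpin are not among the libraries analysed here, and an effect of DOX itself cannot be told apart from one of the hairpin. Whether the DOX groups also received DMSO is not given in the sources used here, and a difference in DMSO cannot be told apart from either.

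The proteasome degrades proteins that have been tagged with ubiquitin. Its core is a stack of rings, with alpha subunits gating the entrance and beta subunits lining the chamber, where PSMB5, PSMB6 and PSMB7 carry the chymotrypsin-like, caspase-like and trypsin-like active sites. The cap binds ubiquitin chains and removes them through its lid, and unfolds substrates with the ATPases of its base. Activators PSME1 and PSME2 form an interferon-inducible ring that replaces the cap, PSME3 forms a nuclear ring and PSME4 encodes PA200, a single large nuclear activator. Secretory cells, pNET cells among them, make large amounts of protein and rely on the proteasome to clear what misfolds.

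MUC1, the target of the hairpin, stood at 7.19, 5.81 and 5.65 CPM (the count scaled to a common library total) with vehicle and at 0.705, 1.04 and 0.744 CPM with DOX in QGP-1 cells, and at 20.6, 20.7 and 15.6 against 1.48, 2.65 and 3.97 CPM in BON-1 cells. Its log2 fold change was -2.91 in QGP-1 (SE 0.23, adjusted p = 8.24e-07) and -2.79 in BON-1 cells (SE 0.22, adjusted p = 6.51e-11, edgeR), with no overlap of the groups. Libraries held 38224144 to 50525926 counts in QGP-1 and 15981954 to 28484324 in BON-1 cells. All 8 neuroendocrine markers examined exceeded 1 CPM in each library, and their sum was 5765 to 6590 CPM with vehicle and 6529 to 7140 CPM with DOX in QGP-1, and 11708 to 15071 against 9224 to 9733 CPM in BON-1 cells. In BON-1 the lower sum was that of CHGA, at 6535 to 9328 CPM with vehicle and 2705 to 3130 CPM with DOX, while the other 7 markers summed to 5173 to 5743 against 6519 to 6603 CPM. Of the 8, 3 were called lower and 2 higher in BON-1, and 0 and 2 in QGP-1. Of 8 markers of blood, endothelial and stromal cells, 0 did so in each QGP-1 library and 1, LUM, in each BON-1 library, and no marker of this list was at 0 counts in all libraries of a line. Their summed level was 2.77 to 4.21 CPM with vehicle and 2.07 to 2.56 CPM with DOX in QGP-1, and 6.11 to 7.36 against 11.2 to 13.4 CPM in BON-1 cells. The non-coding RNAs RN7SK, RN7SL1 and RN7SL2 took 5.37% to 6.38% of the counts of QGP-1 vehicle libraries and 3.30% to 4.53% with DOX, and 1.35% to 2.39% against 1.55% to 3.77% in BON-1, and the part of these differences in the results was not tested.

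PSMB5, PSMD8 and PSME1 were called lower and PSME4 higher with DOX in both lines, and these calls held whichever library was left out. The promoters of these genes are shown because their changes were shared by the lines. Each stretch reads 5′ to 3′ on the gene's own strand, taken from RefSeq on GRCh38.p14, from 250 bases before the RefSeq start up to the base before the first annotated transcript base. Capitals mark the letters of 7 searched motifs, which were a relaxed core of the antioxidant response element (TGANNNNGC), the CCAAT box by its own letters, the E-box CACGTG, an ETS site spelled CCGGAAG, the GC box GGGCGG, an interferon response core (GAAANNGAA) and a gamma-activated site (TTCNNNGAA). Each was sought on both strands and overlaps between motifs were allowed.
PSMB5, chr14:23035231-23035470, minus strand: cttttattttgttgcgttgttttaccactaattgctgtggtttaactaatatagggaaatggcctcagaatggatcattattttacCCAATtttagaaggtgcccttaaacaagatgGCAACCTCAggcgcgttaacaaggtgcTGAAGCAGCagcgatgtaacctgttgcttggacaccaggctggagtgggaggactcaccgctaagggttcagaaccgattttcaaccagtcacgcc
PSMD8, chr19:38374321-38374562, plus strand: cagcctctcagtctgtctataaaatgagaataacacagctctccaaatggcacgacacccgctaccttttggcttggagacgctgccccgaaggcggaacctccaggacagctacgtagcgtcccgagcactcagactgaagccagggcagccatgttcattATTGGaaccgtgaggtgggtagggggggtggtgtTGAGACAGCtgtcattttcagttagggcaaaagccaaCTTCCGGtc
PSME1, chr14:24135944-24136162, plus strand: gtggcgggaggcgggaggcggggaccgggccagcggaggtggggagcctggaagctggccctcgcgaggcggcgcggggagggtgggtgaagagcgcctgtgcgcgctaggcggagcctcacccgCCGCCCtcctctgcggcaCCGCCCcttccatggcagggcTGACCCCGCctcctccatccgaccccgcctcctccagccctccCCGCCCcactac
PSME4, chr2:53970994-53971243, minus strand: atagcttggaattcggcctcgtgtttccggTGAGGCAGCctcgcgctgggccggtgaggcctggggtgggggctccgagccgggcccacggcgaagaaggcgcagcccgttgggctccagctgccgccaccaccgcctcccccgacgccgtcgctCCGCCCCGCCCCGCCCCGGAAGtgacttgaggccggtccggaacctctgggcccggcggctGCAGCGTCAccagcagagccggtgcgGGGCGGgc

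TGANNNNGC was the motif that all 4 printed stretches held, at bases -133 and -106 from the start in PSMB5, at -54 in PSMD8, at -86 in PSME1 and at -220 and -34 in PSME4. It is common: 42.1% of the 27305 promoters in the table held it in a window of 300 bases, against 60.0% of the 40 members with an entry. A CCAAT box stood at -164 in PSMB5 and at -88 in PSMD8, and ETS letters at -17 in PSMD8 and at -80 in PSME4. Among members, CCGGAAG was found in 32.5% of promoters against 10.7% of all, GGGCGG in 65.0% against 44.6%, CCAAT in 45.0% against 35.7%, GAAANNGAA in 17.5% against 8.29%, TTCNNNGAA in 12.5% against 7.88%, and CACGTG in 7.5% against 7.43%. These matches describe letters in a window and are no evidence of binding. No promoter entry was found for PSMA7, PSMB1, PSMB6, PSMB7, PSMD4 and PSMG3.

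**Figure D1:**
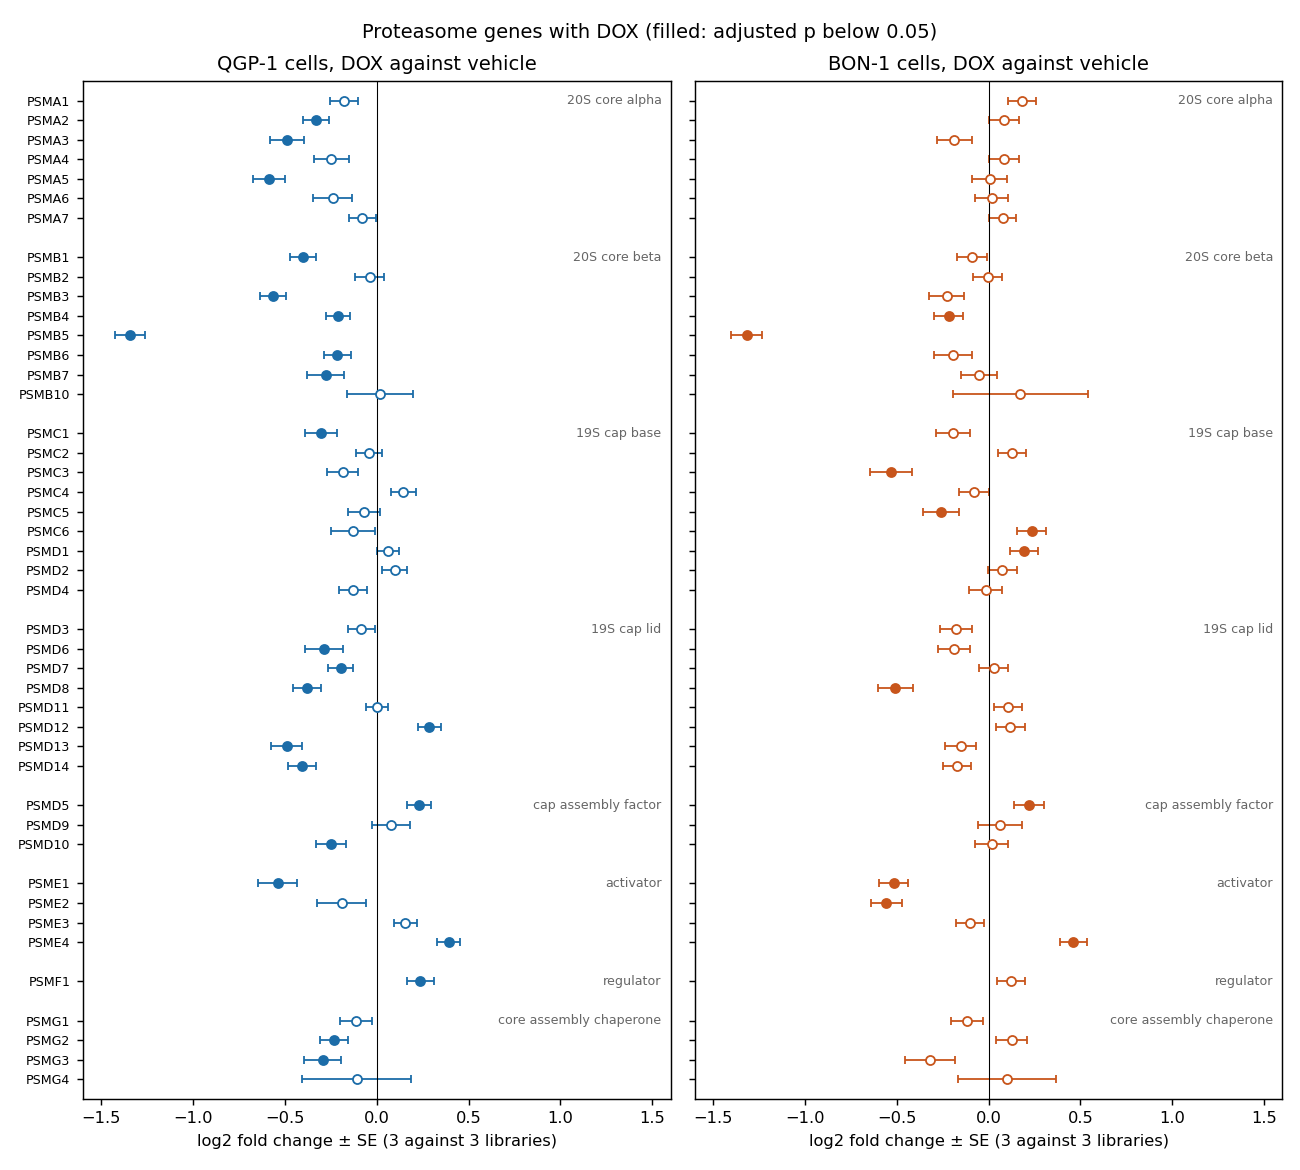
Log2 fold change with DOX of the 44 tested proteasome genes in QGP-1 (left) and BON-1 cells (right), with the SE, grouped by role. Filled points passed an adjusted p of 0.05 in edgeR. PSMB5 lies at -1.35 and -1.32, apart from all other members, which lie between -0.59 and 0.46.

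PSMB5, which encodes the chymotrypsin-like subunit that bortezomib and related proteasome inhibitors bind, showed the most negative log2 fold change of all members in each line. The gene lies on chromosome 14 (23016543 to 23035230, minus strand, GRCh38), where GENCODE v44 annotates no pseudogene and no other gene sharing its exon bases. In QGP-1 cells the 3 vehicle libraries held 56.9, 54.9 and 56.1 CPM and the 3 DOX libraries 23.3, 21.1 and 21.8 CPM. In BON-1 cells the vehicle libraries held 203, 187 and 180 CPM and the DOX libraries 84.4, 77.8 and 67.1 CPM. The DOX libraries were lower than each vehicle library of their line without overlap, and the lowest library held 831 PSMB5 counts. The log2 fold change of PSMB5 was -1.35 in QGP-1 (SE 0.08, adjusted p = 1.28e-07) and -1.32 in BON-1 cells (SE 0.09, adjusted p = 1.59e-12, edgeR), or changes of -60.6% and -59.9%. On the TPM values as deposited its changes were -0.57 and -1.66. The difference between the lines was 0.04 (95% interval -0.21 to 0.28). An exact permutation test of the log2 levels gave p = 0.1 in each line (two-sided, n = 3 against 3), the smallest that 20 splits allow. Any groups of 3 without overlap give this value, so that it adds nothing to the lack of overlap. PSMB5 is on a list of the study that was chosen on these libraries, and its fall here is therefore no independent evidence of direction.

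**Figure D2:**
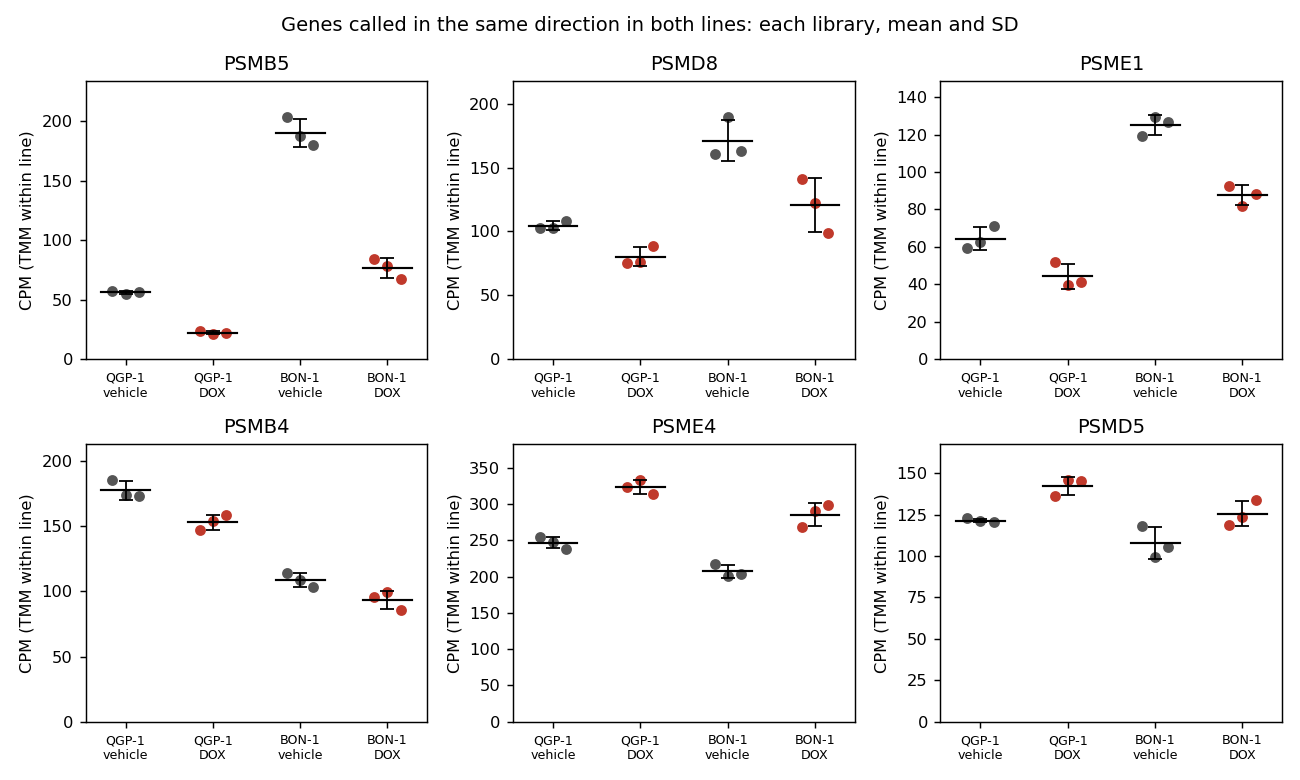
Level of PSMB5, PSMB4, PSMD8, PSME1, PSMD5 and PSME4, called in the same direction in both lines, in CPM scaled within each line. Points are the 3 libraries of a group, lines the mean and bars the SD. PSMB5 with DOX lies at 21.1 to 23.3 CPM in QGP-1 and at 67.1 to 84.4 CPM in BON-1 cells, below all vehicle libraries of the same line.

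The other catalytic subunits changed far less. PSMB6 (caspase-like) stood at 82.2, 77.0 and 75.8 CPM with vehicle and at 63.4, 70.5 and 68.6 CPM with DOX in QGP-1 cells, with no overlap, and at 47.8, 43.5 and 45.3 against 39.1, 45.6 and 34.8 CPM in BON-1 cells, where the groups overlapped. PSMB6 fell by 0.21 in QGP-1 (SE 0.07, adjusted p = 0.038) and its change in BON-1 was -0.19 (SE 0.10, adjusted p = 0.139). PSMB7 (trypsin-like) fell by 0.28 in QGP-1 (SE 0.10, adjusted p = 0.0446), although DOX replicate 1, at 69.2 CPM, lay within the vehicle range of 68.4 to 73.2 CPM, and its change in BON-1 was -0.05 (SE 0.10, adjusted p = 0.719). Both QGP-1 calls were weak. In edgeR, PSMB6 was not called on leaving out vehicle replicate 1 or 2 or any 1 of the DOX libraries (adjusted p 0.0554 to 0.146), nor PSMB7 on leaving out any 1 vehicle library or DOX replicate 2 or 3 (0.0754 to 0.195). PSMB10, the immunoproteasome counterpart of PSMB7, was low, with 191 to 226 counts in QGP-1 and 21 to 58 in BON-1 libraries, and was not called in either line (0.02, SE 0.18, adjusted p = 0.953 and 0.17, SE 0.37, adjusted p = 0.754).

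Over all members, most calls in QGP-1 cells were lower on every scale except the TPM values as deposited. Of 44 members tested, 19 (43.2%) were lower with DOX, where 17.7% of all 15089 genes were called lower, and 4 (9.09%) were higher, where 17.3% of all genes were. PSMA8 was at 0 counts in all 12 libraries and PSMB11, a thymus subunit, at 0 to 2 counts, and neither was tested. The median log2 fold change of the tested members was -0.19 against -0.01 for all genes, and 33 of the 44 lay below 0. In BON-1 cells 7 members (15.9%) were lower, near the 18.3% of all 14625 genes, and 4 (9.09%) were higher, where 17% of all genes were. The median there was -0.01 for members and for all genes alike. With library size in place of TMM, BON-1 gave 13 lower (29.5%, beside 21.5% of all genes) and 1 higher (2.27%, beside 13.9%). With limma on centred TPM the split was 12 lower and 6 higher in QGP-1 and 6 and 1 in BON-1. The higher share in QGP-1 was 13.6%, beside 17.6% of all genes, and the BON-1 shares 13.6% and 2.27%, beside 14.9% and 15.2%. On centred TPM the share of lower members in QGP-1 was 27.3% against 28.9% of all genes, so that the excess over the background seen with counts was absent on that scale. The TPM values as deposited moved the median of all genes to 0.59 in QGP-1 and -0.31 in BON-1, and on that scale 1 member was lower and 38 higher in QGP-1 against 1 and 0 in BON-1, PSMB5 being the lower one. Relative to that median, members then stood at -0.08 in QGP-1 and -0.05 in BON-1. The 38 higher members in QGP-1 were 86.4%, beside 86.6% of all genes. The QGP-1 count of 19 fell to 12 without vehicle replicate 2, to 12 without vehicle replicate 3 and to 11 without DOX replicate 2. Over all genes the lower calls fell as well, from 2676 to 1996, 2364 and 2059 in the same fits. The 4 higher members in QGP-1 became 2 without vehicle replicate 2 or DOX replicate 3. Over all genes the higher calls went from 2610 to 1975 and 2193 there. In BON-1 the 4 higher members became 1 without vehicle replicate 3 and 2 without vehicle replicate 2 or any 1 DOX library. Over all genes the higher calls in BON-1 went from 2488 to 2019 without vehicle replicate 3 and to 1908 to 2196 in those other fits. In cultures read in bulk, fewer cells with high levels and less RNA per cell cannot be told apart, and the p-values measure the spread between these libraries only.

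Core genes made up 9 of the 19 lower calls in QGP-1 cells. Of the 15 tested, 9 were lower and 0 higher in QGP-1 cells, with 14 below 0 and a median of -0.25, whereas in BON-1 cells 2 were lower, PSMB4 and PSMB5, and 0 higher, with a median of -0.01. The lower core genes were 60.0% in QGP-1, beside 17.7% of all genes, and 13.3% in BON-1, beside 18.3% of all genes. Higher calls took 17.3% and 17% of all genes. The BON-1 count of 2 became 1 without vehicle replicate 2 or DOX replicate 3, and 4 without DOX replicate 1. Over all genes the lower calls in BON-1 went from 2677 to 2226, 2442 and 2477 in the same fits. That QGP-1 median lay below 0 under each scaling apart from the TPM as deposited, where it was 0.48 beside an all-gene median of 0.59. Without PSMB5 the core medians were -0.24 and 0.00. The alpha genes, whose products gate the chamber, gave 3 lower of 7 in QGP-1 (median -0.25) and 0 of 7 in BON-1 (median 0.08). These were shares of 42.9% and 0.0%, beside 17.7% and 18.3% of all genes.

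PSMA5 (chromosome 1, 109399042 to 109426448, minus strand) had the most negative value among alpha genes in QGP-1 cells. It stood at 137, 150 and 173 CPM with vehicle and at 108, 94.2 and 104 CPM with DOX there, and at 162, 212 and 220 against 222, 196 and 180 CPM in BON-1. The QGP-1 groups were apart and the BON-1 groups overlapped. PSMA5 fell by 0.59 in QGP-1 (SE 0.09, adjusted p = 0.000174), and its BON-1 value was 0.01 (SE 0.10, adjusted p = 0.959). PSMA2 moved from 131, 138 and 146 to 108, 106 and 117 CPM in QGP-1, a fall of 0.33 (SE 0.07, adjusted p = 0.00252). PSMA3 was lower there at -28.7% (adjusted p = 0.00105) and PSMA1, PSMA4, PSMA6 and PSMA7 were not called, with values of -0.25 to -0.08. PSMA4 was called lower without vehicle replicate 1 or DOX replicate 1, and PSMA6 without vehicle replicate 1 or DOX replicate 3.

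Among beta genes, 6 of 8 (75.0%) were lower in QGP-1 and 2 of 8 (25.0%) in BON-1, beside 17.7% and 18.3% of all genes. Besides the catalytic subunits these were PSMB1, PSMB3 and PSMB4 in QGP-1, PSMB1 at -24.4% (adjusted p = 0.000646). PSMB3, a non-catalytic subunit, fell by 0.57 in QGP-1 (SE 0.07, adjusted p = 4.22e-05), from 222, 229 and 236 to 159, 142 and 163 CPM. In BON-1 its libraries overlapped, at 84.6, 90.0 and 97.0 against 91.6, 73.1 and 67.6 CPM, with a change of -0.23 (SE 0.10, adjusted p = 0.0646) that passed the threshold without vehicle replicate 1 (adjusted p = 0.0464) or DOX replicate 1 (adjusted p = 0.00517). PSMB4, singled out after its values were seen because it was called lower in both lines, moved from 185, 174 and 173 to 147, 154 and 159 CPM in QGP-1 and from 114, 109 and 103 to 95.8, 99.2 and 85.7 CPM in BON-1. The changes were -0.21 (SE 0.07, adjusted p = 0.0222) and -0.22 (SE 0.08, adjusted p = 0.037). That call was lost in QGP-1 without vehicle replicate 1 or 2 or DOX replicate 1 or 2, and in BON-1 without vehicle replicate 1 or 2 or DOX replicate 3. PSMB2 was not called in either line, at -0.04 and -0.01.

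Summed over the class, alpha genes took 1077, 1131 and 1296 CPM with vehicle and 1004, 899.5 and 997.9 CPM with DOX in QGP-1 cells, a change of the mean by -17.2%. In BON-1 cells the alpha sum was 1342, 1590 and 1564 against 1666, 1469 and 1518 CPM, or 3.48%, with overlapping groups. The beta sum changed by -16.8% in QGP-1 and -17.4% in BON-1, without overlap in either. Without PSMB5 the beta change was -14.6% in QGP-1 and -6.40% in BON-1, so that this 1 gene made up most of the fall in BON-1. Cap base sums differed by -0.49% and 4.13% and lid sums by -8.59% and -7.98%. In BON-1 only 1 of the 8 lid genes, PSMD8, was called lower, and the lid sum without it was not computed.

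The 17 cap genes gave 6 lower and 1 higher in QGP-1 cells (median -0.13) and 3 lower and 2 higher in BON-1 cells (median -0.08). The lower cap genes were 35.3% in QGP-1, beside 17.7% of all genes, and 17.6% in BON-1, near the 18.3% of all genes, and the higher ones 5.88% and 11.8%, beside 17.3% and 17%. In the base, which holds the ATPases PSMC1 to PSMC6, 1 gene of 9 was lower in QGP-1 (PSMC1, at -19.0%, though not without vehicle replicate 3 or DOX replicate 3) and 2 were lower and 2 higher in BON-1. PSMC3 fell by 0.53 in BON-1 (SE 0.11, adjusted p = 0.00059), from 47.0, 48.7 and 45.6 to 31.4, 40.2 and 26.1 CPM, and stood at 43.5, 46.0 and 44.7 against 42.8, 38.8 and 36.5 CPM in QGP-1 (-0.18, SE 0.08, adjusted p = 0.106), where it passed the threshold without DOX replicate 1 (adjusted p = 0.0453). PSMC5 was lower in BON-1, at -16.5%, with DOX replicate 2, at 67.6 CPM, inside the vehicle range, and the call was lost without vehicle replicate 1, DOX replicate 1 or DOX replicate 3. PSMC6 and the scaffold gene PSMD1 rose in BON-1 by 17.7% (adjusted p = 0.0211) and 14.3% (adjusted p = 0.0484). PSMC6 was at 105, 119 and 112 against 142, 127 and 128 CPM, and PSMD1 at 319, 289 and 276 against 336, 344 and 331 CPM. Neither call was robust: PSMC6 lost it without vehicle replicate 1 or 3 or DOX replicate 1, and PSMD1 without any library but vehicle replicate 1, as well as with the replicate number as a block (adjusted p = 0.0699). PSMC1 has 13 annotated pseudogenes and shares 4667 exon bases with NRDE2 on the opposite strand, and how reads on such stretches were assigned is not given in the sources used here.

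In the lid, 5 of 8 genes (62.5%) were lower and 1 (12.5%) higher in QGP-1, and 1 (12.5%) was lower in BON-1. Over all genes 17.7% were lower and 17.3% higher in QGP-1, and 18.3% were lower in BON-1. PSMD8, on chromosome 19 (38374563 to 38383850, plus strand), was lower in both lines. The study chose its list with PSMD8 on these libraries, so that this is no independent evidence. Its QGP-1 libraries moved from 103, 102 and 108 to 75.6, 76.3 and 89.0 CPM and its BON-1 libraries from 161, 189 and 163 to 141, 122 and 98.5 CPM, without overlap. The changes of PSMD8 were -0.38 (SE 0.08, adjusted p = 0.00195) and -0.51 (SE 0.10, adjusted p = 0.000147). PSMD13 fell by 0.49 in QGP-1 (SE 0.08, adjusted p = 0.000573), from 107, 108 and 127 to 78.8, 76.3 and 87.9 CPM, and stood at -0.15 in BON-1 (SE 0.08, adjusted p = 0.159), where the groups overlapped. PSMD14, the lid's deubiquitinase, was lower in QGP-1 at -24.6%, and PSMD6 and PSMD7 were at -18.1% and -12.7%. Of those, PSMD6 kept its call without vehicle replicate 1 or DOX replicate 1 and PSMD7 without DOX replicate 1, and both lost it without any other library. PSMD12 was the lid gene that rose, from 187, 179 and 189 to 218, 224 and 234 CPM in QGP-1 (0.29, SE 0.06, adjusted p = 0.00327), against 0.12 in BON-1 (SE 0.08, adjusted p = 0.256). The cap count of 6 in QGP-1 became 3 without vehicle replicate 3 or DOX replicate 3. Over all genes the lower calls went from 2676 to 2364 and 2269 there.

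**Figure D3:**
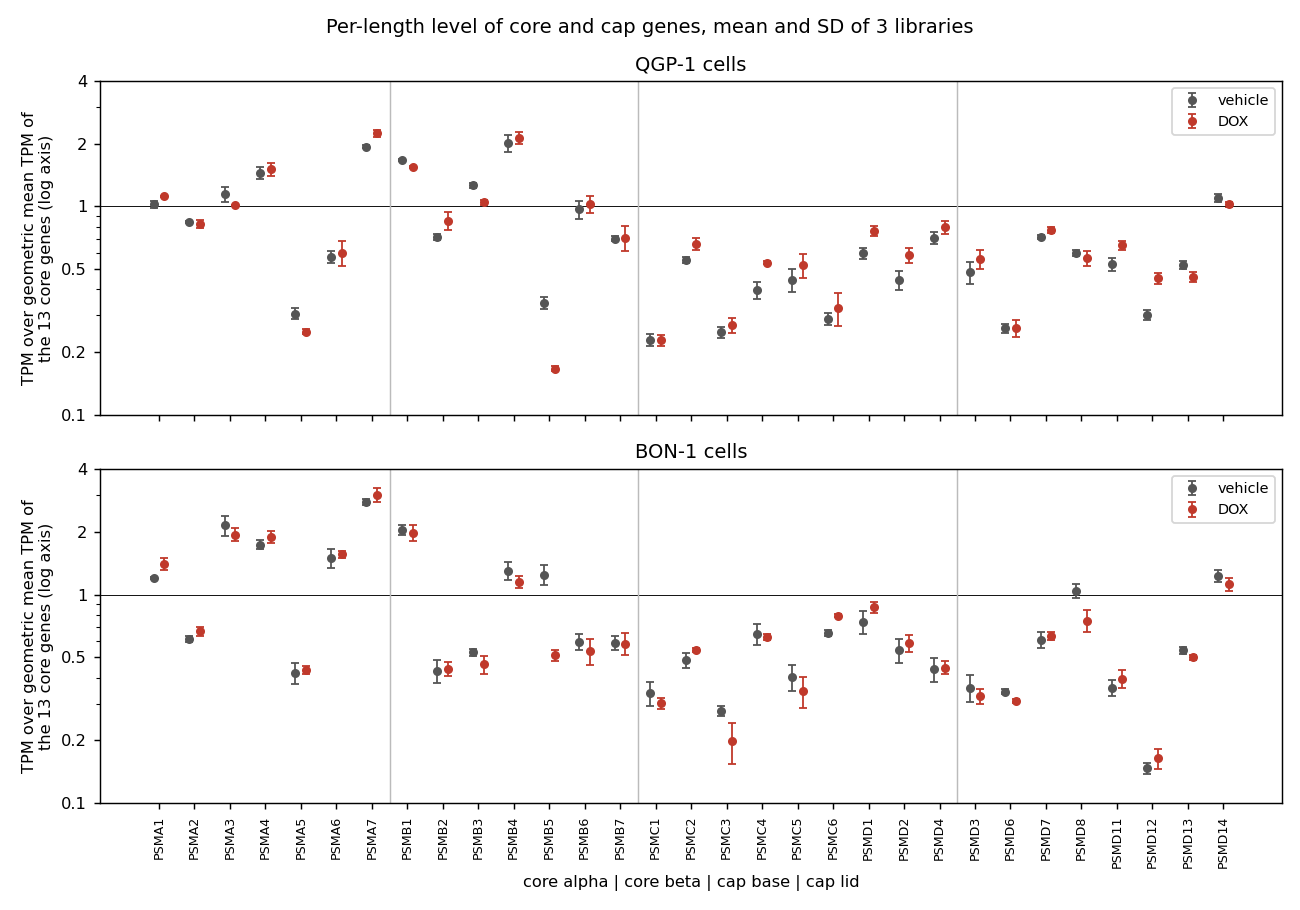
Per-length level of 14 core and 17 cap genes, as the authors' TPM divided by the geometric mean TPM of the 13 core genes other than PSMB5 in the same library, on a log axis. Points are means and bars SDs of 3 libraries, vehicle and DOX side by side. PSMB5 moves from 0.345 to 0.167 in QGP-1 and from 1.25 to 0.512 in BON-1 cells.

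Because the subunits assemble in fixed proportion, the level of each gene per length was set against the core of its own library. The scale was TPM over the geometric mean TPM of the 13 constitutive core genes other than PSMB5. In QGP-1 vehicle cells the 14 core genes ranged from 0.306 (PSMA5) to 2.01 (PSMB4), and in BON-1 vehicle cells from 0.420 (PSMA5) to 2.78 (PSMA7). PSMB5 was next to lowest in QGP-1 vehicle cells at 0.345 ± 0.022 (SD, n = 3) and the lowest with DOX at 0.167 ± 0.005. In BON-1 cells it changed from 1.25 ± 0.14 to 0.512 ± 0.032, the latter above PSMA5 (0.435 ± 0.020) and PSMB2 (0.442 ± 0.034). In QGP-1 vehicle cells the libraries of PSMB5 and PSMA5 (0.306 ± 0.018) overlapped, and with DOX in BON-1 those of PSMB5 overlapped PSMB2 but not PSMA5. Cap genes sat lower, with medians of 0.483 in QGP-1 and 0.486 in BON-1 vehicle cells, from 0.229 (PSMC1) and 0.147 (PSMD12) up to 1.10 and 1.23 (PSMD14). The lengths behind the TPM values are not given in the sources used here, and an order among genes rests on them.

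PSME1 and PSME4 moved in opposite directions in both lines. PSME4 (chromosome 2, 53864069 to 53970993, minus strand), which shares 156 exon bases with ACYP2 on the opposite strand, rose by 0.39 in QGP-1 (SE 0.06, adjusted p = 0.000342) and by 0.46 in BON-1 cells (SE 0.08, adjusted p = 2.03e-05). Its libraries went from 254, 248 and 239 to 324, 333 and 314 CPM in QGP-1 and from 217, 201 and 204 to 268, 291 and 298 CPM in BON-1, with each DOX library above each vehicle library. PSME1 (chromosome 14, 24136163 to 24138967, plus strand) fell, with changes of -0.54 in QGP-1 (SE 0.11, adjusted p = 0.00129) and -0.52 in BON-1 (SE 0.08, adjusted p = 8.55e-06). Its levels were 59.4, 62.8 and 71.0 against 51.8, 39.7 and 41.2 CPM in QGP-1 and 119, 129 and 127 against 92.4, 81.8 and 88.4 CPM in BON-1, again without overlap.

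PSME2, the ring partner of PSME1 and its neighbour on chromosome 14, fell by 0.56 in BON-1 (SE 0.08, adjusted p = 7.3e-06), from 81.9, 91.6 and 86.2 to 60.3, 54.9 and 61.3 CPM. In QGP-1 it stood at 33.7, 36.0 and 42.8 against 40.7, 28.6 and 29.1 CPM, with DOX replicate 1 inside the vehicle range and a change of -0.19 (SE 0.13, adjusted p = 0.285). Without that replicate PSME2 was lower in QGP-1 as well, at -0.37 (adjusted p = 0.0177). The difference between the lines was -0.36 (95% interval -0.69 to -0.02, adjusted p = 0.142). PSME2 has 6 annotated pseudogenes and shares 216 exon bases with RNF31 on the opposite strand. PSME3 was not called in either line, at 0.16 (SE 0.06, adjusted p = 0.073) and -0.10 (SE 0.08, adjusted p = 0.315). On library size (adjusted p = 0.045) and on centred TPM (adjusted p = 0.0152, limma) it was called higher in QGP-1. PSMF1, an inhibitor of the core in vitro, rose by 0.24 in QGP-1 (SE 0.07, adjusted p = 0.0205), from 112, 105 and 96.2 to 122, 123 and 125 CPM, and stood at 0.12 in BON-1 (SE 0.08, adjusted p = 0.218). The PSMF1 call was lost without vehicle replicate 2 or 3 or DOX replicate 3.

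Of the 3 cap assembly factors, PSMD5 was higher in both lines. It moved from 123, 121 and 120 to 136, 146 and 145 CPM in QGP-1 (0.23, SE 0.06, adjusted p = 0.0132) and from 118, 99.6 and 106 to 119, 123 and 134 CPM in BON-1 (0.22, SE 0.08, adjusted p = 0.0375). These calls were lost in QGP-1 without vehicle replicate 2 or DOX replicate 2 or 3, and in BON-1 without vehicle replicate 2 or 3 or DOX replicate 2 or 3. The BON-1 call was also lost with library size (adjusted p = 0.0829), with no filter on low counts (adjusted p = 0.0575) and on centred TPM (adjusted p = 0.186, limma). PSMD10 was lower in QGP-1, at -16.0%, though not without vehicle replicate 3 or DOX replicate 2, and not called in BON-1, and PSMD9 was not called in either line. Among the core assembly chaperones, which build the alpha ring, PSMG2 and PSMG3 were lower in QGP-1 at -14.9% and -18.5%. PSMG2 lost the call without vehicle replicate 2 or 3 or DOX replicate 2, and PSMG3 also without DOX replicate 3. In BON-1, 0 of 4 chaperones were called. Of all genes, 17.7% were called lower and 17.3% higher in QGP-1, and 18.3% and 17% in BON-1. Classes of 3 or 4 genes are too small for a comparison with these shares.

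The 6 genes called in both lines were PSMB4, PSMB5, PSMD8 and PSME1, all lower, and PSMD5 and PSME4, both higher. Of the 44 members tested in both lines these were 4 lower (9.09%) and 2 higher. Lower in both were 978 genes in all, or 7.23% of the 13535 tested in both lines, and 931, or 6.88%, were higher in both. The share of lower members was near that of all genes. No member was called in opposite directions, beside 203 and 161 genes in all, or only 1.5% and 1.19%. On the TPM values as deposited PSMB4, PSMD8 and PSME1 stood at 0.52, 0.34 and 0.19 in QGP-1 and PSMD5 at -0.14 in BON-1, in each case beside the shifted median of all genes. Whether the response differed between lines was tested as the interaction of line and DOX over all 12 libraries. It was called for 4 of 44 members (9.09%), against 16.7% of all 16598 genes. These were PSMA5 (0.61, SE 0.14, adjusted p = 0.0045), PSMA2 (0.43, SE 0.11, adjusted p = 0.00698), PSMA1 (0.37, SE 0.11, adjusted p = 0.0227) and PSMG2 (0.37, SE 0.12, adjusted p = 0.0303), each a BON-1 change minus a QGP-1 change in log2. All 4 values were positive, and the median difference over the 15 core genes tested was 0.27 against -0.00 for all genes. On centred TPM the core medians were -0.17 in QGP-1 and -0.04 in BON-1, and on TPM as deposited 0.48 and -0.36.

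PSMA1 illustrates a difference without a call in either line in the main edgeR fits. With DESeq2 PSMA1 was called higher in BON-1 (0.19, adjusted p = 0.0306). Its libraries stood at 239, 240 and 283 against 231, 212 and 231 CPM in QGP-1 (-0.18, SE 0.08, adjusted p = 0.0887) and at 263, 288 and 290 against 331, 297 and 323 CPM in BON-1 (0.18, SE 0.08, adjusted p = 0.0664), without overlap in either. PSMG2 went from 116, 118 and 126 to 106, 93.3 and 106 CPM in QGP-1, where it was called (adjusted p = 0.0266), and from 72.5, 74.8 and 82.8 to 84.7, 76.7 and 89.4 CPM in BON-1 (adjusted p = 0.266). PSMA5 and PSMA2 kept the interaction call whichever library was left out. PSMA1 and PSMG2 lost it without QGP-1 vehicle replicate 3, QGP-1 DOX replicate 1 or 2, BON-1 vehicle replicate 1 or BON-1 DOX replicate 1 or 3, and PSMG2 also without BON-1 vehicle replicate 2. PSMA2 has 3 annotated pseudogenes and shares 1445 exon bases with a neighbouring gene on its strand, PSMA1 shares 814 such bases and PSMG2 468 with CEP76 on the opposite strand. The count of 4 became 7 without QGP-1 vehicle replicate 1, and 2 without QGP-1 vehicle replicate 3, QGP-1 DOX replicate 1 or 2, BON-1 vehicle replicate 1 or BON-1 DOX replicate 1. The share of all genes that differed in those fits is not given here. For PSME4, PSME1 and PSMD8 the interval of the difference was -0.13 to 0.29, -0.24 to 0.31 and -0.40 to 0.17.

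**Figure D4:**
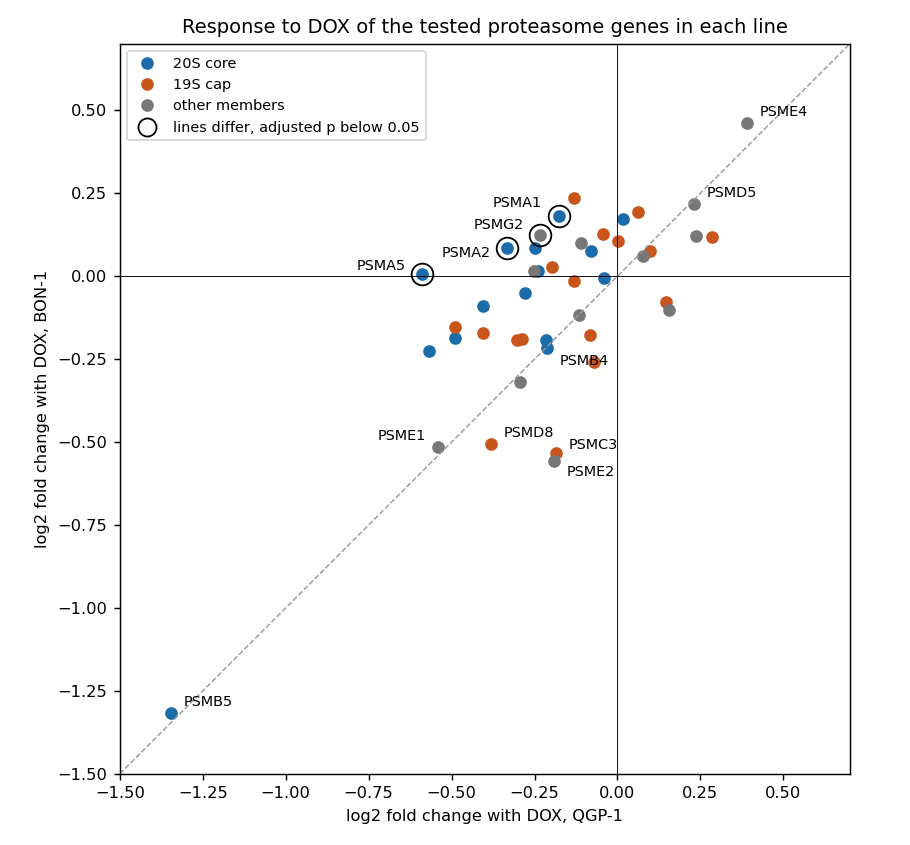
Log2 fold change with DOX in QGP-1 (x axis) against BON-1 cells (y axis) for the 44 tested proteasome genes, colored by role, with the line of equal change dashed. Open rings mark PSMA5, PSMA2, PSMA1 and PSMG2, whose response differed between the lines in edgeR and which lie above the dashed line. PSMB5 sits at the lower left, near it.

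Levels without DOX were compared between the lines in the vehicle libraries, where 19 of 44 members (43.2%) were lower in BON-1 than in QGP-1 cells, beside 38% of all 15835 genes, and 17 (38.6%) were higher, beside 39.4%. These shares are close to the background. PSMB5 was the member with the largest difference, higher in BON-1 by 1.72 on the log2 scale (SE 0.07, adjusted p = 9.07e-15), while 6 of the other 7 beta genes tested were lower. Among them were PSMB3 (-1.38, SE 0.07, adjusted p = 6.45e-13), PSMB6 (-0.82, SE 0.08, adjusted p = 6.32e-09) and PSMB10 (-1.47, SE 0.28, adjusted p = 8.45e-05). The activators PSME2 and PSME1 were higher in BON-1 (1.16 and 0.92) and PSME3 lower (-1.03). PSMA6 (1.26) and PSMC6 (1.05) were higher too, and PSMD12 lower (-1.16).

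Of the other genes of the pathway, 29 listed ones were in the tables. Of the 27 tested in QGP-1, 8 were lower and 8 higher, and of the 29 tested in BON-1, 8 were lower and 6 higher. These are shares of 29.6% and 29.6% in QGP-1, beside 17.7% and 17.3% of all genes, and of 27.6% and 20.7% in BON-1, beside 18.3% and 17%. POMP, which matures the core, fell by 0.48 in QGP-1 (SE 0.08, adjusted p = 0.000568), from 81.1, 86.3 and 99.8 to 64.9, 61.8 and 64.6 CPM. In BON-1 its value was -0.18 (SE 0.09, adjusted p = 0.138). ADRM1, a ubiquitin receptor of the cap, was lower in QGP-1 at -15.4% (adjusted p = 0.0413), a call that was lost when any library but vehicle replicate 3 was left out, and stood at -0.17 in BON-1 (adjusted p = 0.275).

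NFE2L1, which drives proteasome genes when the proteasome is impaired, rose by 0.29 in QGP-1 (SE 0.08, adjusted p = 0.0154), from 140, 134 and 115 to 147, 170 and 158 CPM, and was at 112, 104 and 102 against 96.1, 114 and 85.3 CPM in BON-1 (-0.11, SE 0.09, adjusted p = 0.368). The difference between the lines was -0.39 (adjusted p = 0.0476). The QGP-1 call of NFE2L1 was lost without vehicle replicate 3 or DOX replicate 2 (adjusted p = 0.0558 and 0.0686, edgeR). In BON-1 NFE2L1 was called lower without DOX replicate 2 (-0.24, adjusted p = 0.0441, edgeR). How its difference between the lines held without single libraries is not given here. NFE2L2, the antioxidant counterpart, was at -0.14 and -0.20 and not called (adjusted p = 0.0888 and 0.0539). In BON-1 NFE2L2 passed the threshold in edgeR without vehicle replicate 2 or DOX replicate 3 (adjusted p = 0.0168 and 0.0187). It also did so there with library size (0.0161), no filter on low counts (0.0226) and at least 10 counts in every library (0.0338). Singled out after their values were seen, UBB, which encodes ubiquitin, changed by -0.38 in QGP-1 and -0.68 in BON-1 cells, and UBA6, a ubiquitin-activating enzyme, by -0.45 and -0.65, each called lower in both lines.

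The immunoproteasome genes PSMB8 and PSMB9 were at 0 to 9 and 2 to 15 counts in QGP-1 libraries and were not tested there. In BON-1 cells PSMB8 fell from 27.9, 34.8 and 33.4 to 17.3, 15.1 and 13.6 CPM (-1.06, SE 0.12, adjusted p = 1.05e-07) and PSMB9 from 14.1, 9.22 and 12.1 to 6.03, 4.89 and 5.29 CPM (-1.13, SE 0.19, adjusted p = 2.18e-05). In that line PSME1 and PSME2, which are interferon-inducible as well, were lower too, whereas PSMB10 was not called.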

How the data were processed

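Total RNA was isolated from the cultures and made into poly(A)-selected stranded libraries. Per the labels and the study's methods, the authors aligned reads with STAR to human GRCh38 and deposited 1 table of counts per gene and 1 of TPM per gene for each line. The STAR version, the counting tool, its use of strand and its treatment of reads with several matches are not given in the sources used here. All columns were mapped to libraries by name (0 not used). The deposited TPM table leaves out 2468 genes in QGP-1 and 2464 in BON-1 and holds all 46 members, whose values followed their counts within 0.294%.

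Counts were tested within each line with edgeR 4.0.16 (R 4.3.3), with a filter on low counts, TMM scaling and the quasi-likelihood test, and p-values were adjusted by Benjamini-Hochberg over all genes tested, at a threshold of 0.05. SEs are the fold change over the square root of F. The interaction used all 12 libraries and the comparison of lines the 6 vehicle libraries. Alternatives used DESeq2 1.42.0, limma 3.58.1 on log2(TPM + 1) over genes averaging 1 TPM or more, with and without centring each library, other filters and scalings, a replicate block, and each library left out. The code was tested on simulated data. CPM are scaled within a line. Depth was 38224144 to 50525926 (QGP-1) and 15981954 to 28484324 (BON-1) counts per library, and its part in the precision of low genes was not tested. Replicates differed beyond sampling noise (chi-square per gene 5.92 to 29.7).

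Members and lists were chosen with earlier results of these data known. Single values are given for the catalytic subunits, PSMD8, the activators and PSMF1, the 5 called members with the most negative and the 5 with the most positive change in each line, the 4 smallest interaction p, and POMP, ADRM1, NFE2L1, NFE2L2, PSMB8 and PSMB9. PSMB4 was added after its values were seen. PSMB5 and PSMD8 stand on lists the study chose on these libraries. A result on 1 gene of the pathway list is not reported here.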

Additional observations from a re-analysis of the deposited data

Results flagged for a closer look

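The test of the interaction between line and DOX marked 4 of 44 proteasome genes whose response differed between BON-1 and QGP-1 cells (edgeR, adjusted over all genes). This share of 9.09% was below the 16.7% of all genes that differed. PSMA5 differed by 0.61 on the log2 scale (adjusted p = 0.0045), with changes of -0.59 in QGP-1 and 0.01 in BON-1. PSMA2 differed by 0.43 (adjusted p = 0.00698), from -0.33 to 0.08. PSMA1 differed by 0.37 (adjusted p = 0.0227), from -0.18 to 0.18, and PSMG2 by 0.37 (adjusted p = 0.0303), from -0.23 to 0.13. The calls of PSMA1 and PSMG2 were lost when certain single libraries were left out. The lines were also grown in different media, and line and medium cannot be told apart.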

How the results depend on the processing

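Counts of lower proteasome genes in QGP-1 (19) became 12 with limma on centred TPM (27.3%, beside 28.9% of all genes). They became 1 with limma on TPM as deposited (2.27%, beside 0.843%), and 11 to 21 on leaving out 1 library. Over all genes the lower calls in QGP-1 (2676) became 1996 to 2614 on leaving out 1 library. Higher proteasome genes in QGP-1 (4) became 38 on TPM as deposited (86.4%, beside 86.6% of all genes) and 2 to 4 on leaving out 1 library. Core genes lower (9) became 1, and cap genes lower (6) became 0, on TPM as deposited, and the cap count ranged from 3 to 8 on leaving out 1 library. In BON-1, lower genes (7) became 13 with library size (29.5%, beside 21.5% of all genes) and 1 on TPM as deposited (2.27%, beside 2.8%). Higher genes (4) became 1 with library size, 2 with no filter on low counts, 1 on centred TPM, 0 on TPM as deposited and 1 to 3 on leaving out 1 library. Over all genes the higher calls in BON-1 (17.0%) became 13.9%, 11.3%, 15.2% and 0.284% under the first 4 of these. On leaving out 1 library they went from 2488 to 1908 to 2196. Core genes lower (2) became 4 with no filter, 1 on TPM as deposited and 1 to 4 on leaving out 1 library, and cap genes lower (3) became 7 with library size and 0 on TPM as deposited. Over all genes the lower calls in BON-1 took 18.3% in the main fit, 14.3% with no filter, 21.5% with library size and 2.8% on TPM as deposited. On leaving out 1 library they went from 2677 to 2194 to 2577. The 4 genes that differed between lines became 8 with DESeq2, 7 with no filter and 2 to 7 on leaving out 1 library. The share of all genes that differed under these settings is not given here. On TPM as deposited, the all-gene median itself moved to 0.59 in QGP-1 and -0.31 in BON-1. For the other changes the cause was not tested. Counts of the vehicle comparison stayed within 1.5 times under the alternatives run.

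Of the values for named genes, 673 kept their direction and side of the threshold, 88 fell below it, 21 passed it and 40 changed sign. Of these 40, 27 arose on TPM as deposited, 15 of them in genes called on the counts. In QGP-1 that scale gave, for called genes, PSMA2 0.40, PSMA5 0.15, PSMB3 0.17, PSMB4 0.52, PSMB6 0.51, PSMB7 0.44, PSMD8 0.34, PSMD13 0.24, PSME1 0.19, PSMG2 0.50, POMP 0.25 and ADRM1 0.48, and for others PSMA1 0.56, PSMC3 0.52, PSMC6 0.57, PSME2 0.52 and NFE2L2 0.59. In BON-1 it gave, for called genes, PSMC6 -0.13, PSMD1 -0.17 and PSMD5 -0.14, and for others PSMA1 -0.18, PSMA2 -0.28, PSMA5 -0.34, PSMB10 -0.081, PSMD12 -0.23, PSMF1 -0.23 and PSMG2 -0.24. The other 13 were in genes not called. PSMB10 in QGP-1 was -0.0902 on centred TPM and ran from -0.10 to 0.17 on leaving out 1 library, below 0 without vehicle replicate 2, vehicle replicate 3 or DOX replicate 2. In BON-1 it ran from -0.033 to 0.58, below 0 without vehicle replicate 3. PSMC6 in QGP-1 ran from -0.24 to 0.0061, above 0 without DOX replicate 1, and PSMB7 in BON-1 from -0.14 to 0.042, above 0 without DOX replicate 3. PSMA5 in BON-1 was -0.042 with library size, -0.014 with no filter, -0.0093 with at least 10 counts in every library and -0.021 on centred TPM, and ran from -0.12 to 0.078 on leaving out 1 library, below 0 without vehicle replicate 1 or DOX replicate 1.

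The deviations of same-numbered libraries had correlations of -0.10, 0.16 and 0.12 in QGP-1 and -0.07, -0.04 and 0.11 in BON-1. Those of differently numbered libraries ran from -0.34 to 0.23 and from -0.13 to 0.15. With 3 libraries per group these values cannot settle whether the numbers pair the samples. With a replicate block, QGP-1 gave 20 lower and 4 higher members and BON-1 7 and 3, and 6 members differed between the lines. The QGP-1 shares were 45.5% and 9.09%, beside 18.1% and 18.2% of all genes. Those of BON-1 were 15.9% and 6.82%, beside 18.2% and 16.5%. The block also called PSMA6 lower in QGP-1 (adjusted p = 0.014) and lost the BON-1 call of PSMD1. PSMB10 and PSMG4 were the lowest tested members. Their SEs were 0.18 and 0.30 in QGP-1 and 0.37 and 0.27 in BON-1 cells (edgeR), and the part of depth in these was not tested.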
